A study of Homo sapiens with 7 samples.

Results

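Chromatin loops anchored at the promoters of 10 activator protein 1 (AP-1) and immediate-early genes were examined in H3K27ac HiChIP data from 3 human cancer cell lines. The genes were FOS, FOSB, FOSL1, FOSL2, JUN, JUNB, JUND, ATF3, EGR1 and IER2. A loop belonged to the set when 1 of its anchors lay over a window of 500 bp centred on any annotated start site of these genes. By this rule 289 of 354783 loops were found, of which 48 of 163530 were in the Ishikawa list, 56 of 42027 in the T-47D list and 185 of 149226 in the LNCaP list. Of the 10 genes, 9 had a loop in at least 1 list and FOSL1 had none.

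HiChIP joins DNA ends that lie close together in the nucleus and then enriches fragments carrying a chosen chromatin protein, here histone H3 acetylated at lysine 27, a mark of active promoters and enhancers. Ishikawa is an endometrial adenocarcinoma line (4 samples), T-47D a ductal carcinoma line of the breast (1 sample) and LNCaP a prostate carcinoma line (2 samples). Of the Ishikawa samples, 2 received β-estradiol (E2) at 10 nM for 1 h and 2 received the vehicle DMSO for the same time, and the labels give no treatment for the other samples. The authors combined the samples of each line into 1 list, so no value has a replicate error, E2 and DMSO could not be compared, and every comparison below is between these lists. Ishikawa chromatin was cut with DpnII and the other chromatin with MboI, enzymes that recognize the same site, and the sonicator and sequencer changed with the enzyme. Per the study's methods, Ishikawa samples were also sequenced deeper than the others, with shorter reads. In a comparison with Ishikawa, these differences cannot be told apart from the cell line.

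AP-1 is a dimer of basic leucine zipper proteins, made of a JUN protein paired with a FOS, JUN or ATF protein. It binds TGA(C/G)TCA, searched for here as TGANTCA with any central base. The genes of many of its subunits, along with EGR1 and IER2, belong to the immediate-early genes, which growth factors, stress and some hormones induce within minutes without new protein synthesis. Serum response factor, which binds CArG boxes, and CREB, which binds the cAMP response element TGACGTCA, are the best known activators at their promoters. AP-1 also takes part in estrogen signaling, since the estrogen receptor can be recruited to DNA through it.

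In every cell line, 8 of the 10 genes were in contact with distal DNA. Here a distal anchor is one that holds no promoter of a protein-coding gene, and a gene was linked when its promoter was joined to at least 1 such anchor. In Ishikawa 8 of the 10 genes were linked, beside 52.5% of 20163 protein-coding genes. In T-47D 9 were linked, beside 34.7% of all genes, and in LNCaP 9, beside 52.4%. The same 8 genes were linked in all 3 lists, against 20.9% of all genes. In Ishikawa ATF3 and EGR1 were each linked by 1 loop of 3 read pairs, and the 8 genes linked there fell to 4 after thinning to the depth of the shallowest list, 4 at 10 or more read pairs and 5 with loops of 2 or more parts of the list. At 10 or more read pairs the 9 linked in T-47D fell to 4 and the 9 linked in LNCaP to 6. LNCaP also had 6 after thinning. In T-47D 6 were linked at 5 or more read pairs and 6 with 1 start site per gene, and in Ishikawa 6 at 5 or more read pairs. The share of all genes was not counted under these settings, so these lower counts cannot be set against 52.5%, 34.7% or 52.4%. Counting loops to any partner gave the same 8, 9 and 9 genes, beside 57.3%, 49.2% and 58.1% of all genes. FOSB had no loop in Ishikawa.

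The 10 genes differed widely in how many read pairs joined their promoters to other DNA. The median over the genes was 21.5, 28.5 and 159.5 read pairs in Ishikawa, T-47D and LNCaP, where the medians over all genes with a loop were 21, 23 and 72. Read pairs were not scaled for depth, so each was set against the total of its list (1040329 in Ishikawa, 351260 in T-47D, 1805322 in LNCaP) and is also given in RPM, read pairs per 1000000 read pairs of the list. These totals count read pairs in listed loops, not all sequenced read pairs. Loops of the 10 genes held 0.0373% of the Ishikawa read pairs (95% Wilson interval 0.0338 to 0.0412), 0.107% of those of T-47D (0.0965 to 0.118) and 0.118% of those of LNCaP (0.113 to 0.123). The Ishikawa share lay below the intervals of both other lists, and those 2 intervals overlapped. These intervals cover counting error only, and read pairs without molecular identifiers are not independent molecules. Ishikawa shares were also lower for genes in general. Over all genes with 10 or more read pairs in a compared list, the median log2 ratio of Ishikawa was -1.07 to T-47D and -1.29 to LNCaP. The lower Ishikawa share is therefore not read as a trait of the 10 genes.

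**Figure D1:**
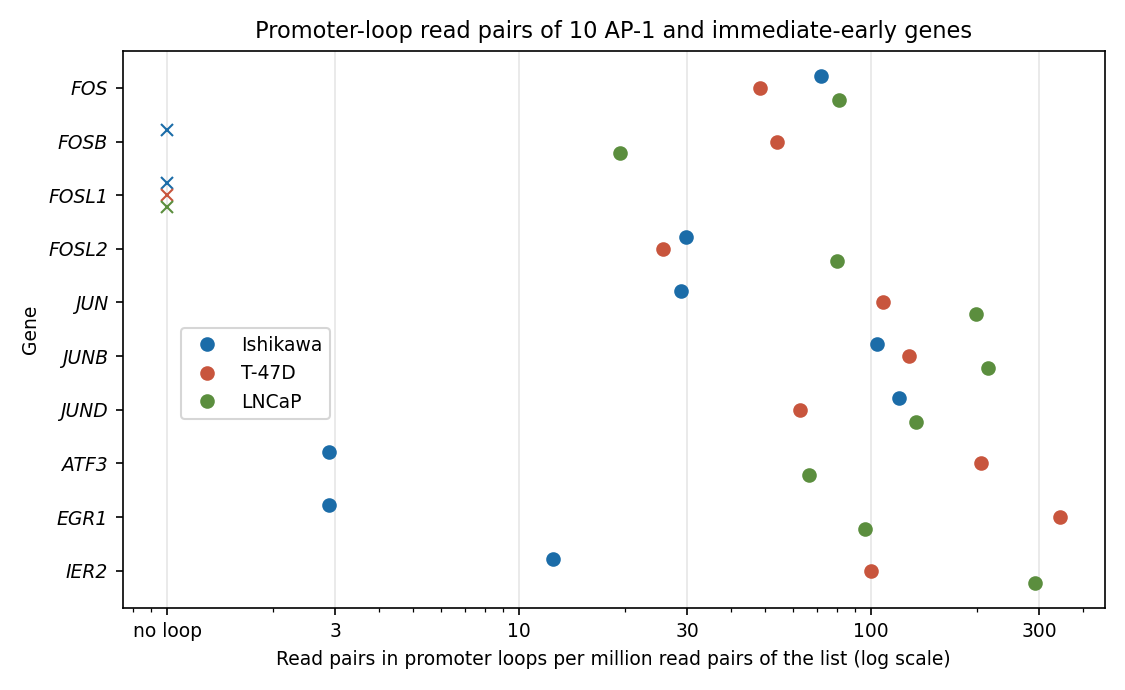
Read pairs in promoter loops in RPM (log scale) for each of the 10 genes, with 1 point per cell line and a cross where no loop was listed. ATF3 and EGR1 stand at 2.88 in Ishikawa and at 205 and 344.5 in T-47D, whereas FOS and JUND lie close together in Ishikawa and LNCaP.

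FOS encodes the founding FOS subunit of AP-1, a short-lived partner of the JUN proteins, and lies at chr14:75745529-75748933 (plus strand, GRCh37). Its promoter is shown because the region just before the start site carried the CArG box of the serum response, printed in capitals.
FOS promoter, chr14:75745189-75745248, plus strand: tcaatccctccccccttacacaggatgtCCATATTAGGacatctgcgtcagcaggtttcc
The promoter anchor was joined by 75, 17 and 146 read pairs in Ishikawa, T-47D and LNCaP, or 72.1, 48.4 and 80.9 RPM. These were the most even shares among the 9 genes with loops, and the Ishikawa share was 0.891 times that of LNCaP (95% counting interval 0.666 to 1.19). In the same order it had 11, 3 and 15 loops, to 9, 1 and 12 distal anchors. Partners lay mainly upstream of the start site, with 76.0%, 100% and 75.3% of the read pairs in the 3 lists.

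One intergenic region upstream of FOS, at chr14:75724481-75727399, was the only distal region linked to any of the 10 genes in all 3 lists. It lay 19.8 kb upstream of the start site by the LNCaP anchor and was joined to FOS by 10, 7 and 65 read pairs in Ishikawa, T-47D and LNCaP, respectively. In LNCaP this was the strongest FOS loop, whereas in Ishikawa a region 44.5 kb upstream was joined more often, by 14 read pairs. Regions 16.0 kb downstream of the start site (11 read pairs in Ishikawa, 8 in LNCaP) and in an intron of TMED10 128.2 kb upstream (7 and 3) were linked in those lists and not in T-47D. Among promoters, that of NEK9, a mitotic kinase gene, was joined to FOS in all 3 lists, by 3, 7 and 16 read pairs. TMED10, a cargo receptor gene of the early secretory pathway, shared 9 distal anchors with FOS in LNCaP, a Jaccard index of 0.6 and the highest of the 9 genes that shared at least 3.

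FOSB encodes a FOS subunit whose promoter held a cAMP response element and a CArG box within the same stretch, both in capitals, and the gene lies at chr19:45971253-45978437 (plus strand).
FOSB promoter, chr19:45970913-45971002, plus strand: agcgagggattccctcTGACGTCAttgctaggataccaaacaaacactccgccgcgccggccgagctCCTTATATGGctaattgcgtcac
FOSB had no loop in Ishikawa, 4 loops with 19 read pairs in T-47D and 6 loops with 35 read pairs in LNCaP. A list of no loop was counted as 3 read pairs, the least a listed loop has. The share then came out 18.8-fold higher in T-47D than in Ishikawa and 6.72-fold higher in LNCaP. Neither value is a lower limit, since Ishikawa had no anchor over the promoter window. The nearest Ishikawa anchor ended 551 bp from the first start site, outside the window. With a window of 2 kb it gave FOSB 21 read pairs, and the sign of Ishikawa over LNCaP turned. With 1 start site per gene FOSB had 0 read pairs in T-47D, which ended the difference from Ishikawa and turned the sign of LNCaP over T-47D (log2 from -1.48 to 1.18). FOSB contacts were short and mostly with other promoters. In LNCaP the strongest, with 13 read pairs, reached the anchor over POLR1G and PPP1R13L 62.4 kb upstream, which had 4 read pairs in T-47D, and the promoters of the DNA repair gene ERCC1 were joined by 8 read pairs in each of these lists. The strongest distal loop in T-47D reached the OPA3 gene 58.8 kb downstream, with 7 read pairs, and was not found in LNCaP.

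FOSL1 and FOSL2 encode the FOS-related antigens, which lack the strong activation domain of FOS. FOSL1 (chr11:65659520-65668044, minus strand) had no anchor over its start sites in any list, and the nearest anchors lay 1.64, 7.54 and 5.49 kb away in Ishikawa, T-47D and LNCaP. A loop needed at least 3 read pairs to be listed, so weaker contacts of FOSL1 were not detectable. FOSL2 (chr2:28615315-28640184, plus strand) had 31, 9 and 144 read pairs in Ishikawa, T-47D and LNCaP, or 29.8, 25.6 and 79.8 RPM. The shares in Ishikawa and T-47D were within counting error of each other, with a ratio of 1.16 (0.540 to 2.78), and the LNCaP share was 2.68 times that of Ishikawa (1.81 to 4.08). FOSL2 contacts pointed to different sides. In Ishikawa an anchor in the gene's own intron, 10.9 kb downstream of the start site, had 17 of the 31 read pairs. In LNCaP 18 of 20 partners and 95.1% of the read pairs lay upstream, over BABAM2, MRPL33 and beyond, up to 700.5 kb away. A BABAM2 intron 228.7 kb upstream was linked in Ishikawa (3 read pairs) and was the strongest LNCaP partner (22).

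JUN encodes the subunit that can pair with itself as well as with FOS and ATF proteins, and lies at chr1:59242517-59249720 (minus strand) in a region with few other genes. In Ishikawa, T-47D and LNCaP it had 30, 38 and 359 read pairs in 6, 6 and 46 loops, or 28.8, 108 and 199 RPM. The LNCaP share was 6.90 times that of Ishikawa (4.75 to 10.4) and 1.84 times that of T-47D (1.31 to 2.64). In LNCaP JUN was linked to 40 distal anchors, more than 99.9% of all protein-coding genes had. It was linked to 5 each in Ishikawa and T-47D, more than 84.66% and 95.35% of all genes had in those lists. Of its 46 partners in LNCaP, promoters included, 38 lay upstream, and the farthest was 1138 kb away. Only 4 other protein-coding genes started within 500 kb of JUN, and 90.0%, 92.1% and 76.9% of its read pairs in Ishikawa, T-47D and LNCaP went to distal anchors.

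The regions that JUN contacted in 2 lists were all intergenic. Those shared by T-47D and LNCaP on the upstream side are shown around the TGANTCA match that each held, in capitals. The match was TGAATCA in the nearer region and TGAGTCA in the farther one.
JUN region 32.3 kb upstream, chr1:59280785-59280841, plus strand: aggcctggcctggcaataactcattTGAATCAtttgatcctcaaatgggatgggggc
JUN region 120.1 kb upstream, chr1:59370609-59370665, plus strand: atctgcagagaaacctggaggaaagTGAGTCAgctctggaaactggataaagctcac
The nearer region was joined to JUN by 14 read pairs in T-47D, where it was the strongest loop, and by 23 in LNCaP. The farther one had 9 and 11. Neither was linked to JUN in Ishikawa, where the strongest partner lay 21.6 kb upstream and had 13 read pairs. A region 31.4 kb downstream was shared by Ishikawa (4) and LNCaP (6), and one 164 kb downstream by T-47D (3) and LNCaP (9). The former held TGANTCA and the latter did not. All distal anchors held 0.343 matches per kb in T-47D and 0.357 in LNCaP, and whether the JUN regions differ from them was not tested. The strongest LNCaP loop reached the promoter of FGGY, a carbohydrate kinase gene 512.6 kb upstream, with 37 read pairs. FGGY promoters were joined to JUN by 3 read pairs in each of the other lists. The T-47D anchor overlapped the LNCaP one, whereas the Ishikawa anchor lay over another FGGY promoter, 972.9 kb upstream. FGGY and JUN shared 20 distal anchors in LNCaP, a Jaccard index of 0.465.

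**Figure D2:**
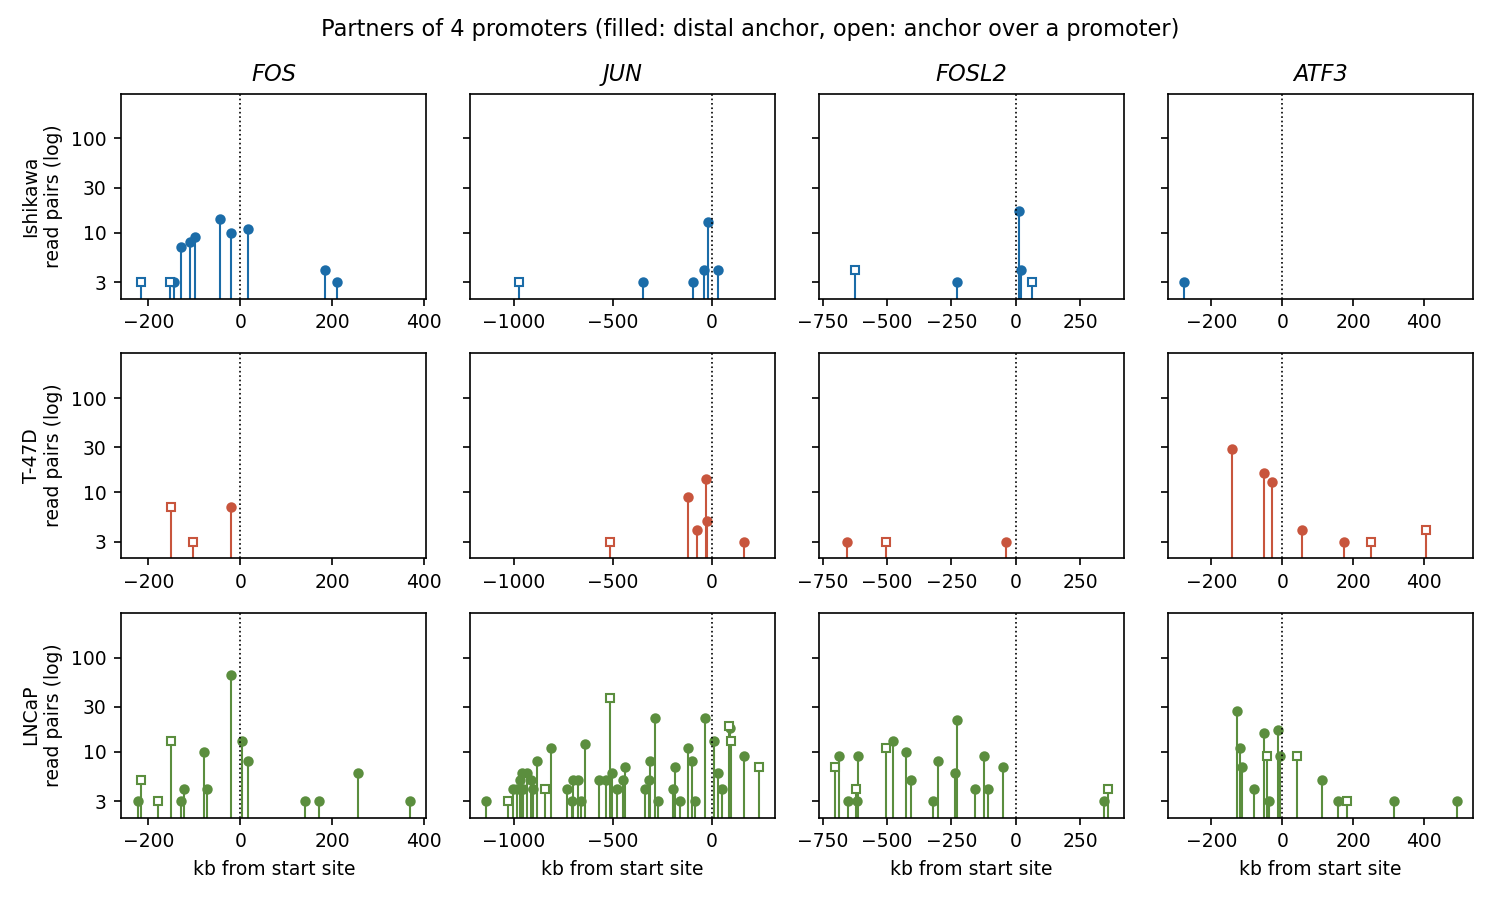
Partners of the FOS, JUN, FOSL2 and ATF3 promoters by distance from the start site (kb, negative upstream) and read pairs (log scale), with a row of panels per cell line, filled points for distal anchors and open squares for anchors over promoters. JUN in LNCaP shows 46 loops reaching 1138 kb, and the FOS partner 19.8 kb upstream recurs in all 3 rows.

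JUNB and JUND encode JUN subunits with weaker activation of many targets, and JUND differs from the rest in being expressed in many resting cells. Both lie on chromosome 19 among many other genes, at chr19:12902300-12904129 (plus strand) and chr19:18390504-18392432 (minus strand). JUNB had 108, 45 and 387 read pairs in Ishikawa, T-47D and LNCaP, or 104, 128 and 214 RPM. JUND had 125, 22 and 242, or 120, 62.6 and 134 RPM. For JUND the Ishikawa and LNCaP shares were within counting error, with a ratio of 0.896 (0.716 to 1.12). The JUNB anchor also lay over a start site of HOOK2 in every list, so its read pairs cannot be assigned to 1 of these genes.

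In most lists other promoters were the main partners of both genes. The distal share of read pairs in Ishikawa, T-47D and LNCaP was 18.5%, 6.67% and 53.0% for JUNB and 12.0%, 63.6% and 12.4% for JUND. The strongest Ishikawa loops of JUNB reached HOOK2 12.7 kb upstream (37 read pairs) and RNASEH2A 17.4 kb downstream (19), and RNASEH2A had 13 in LNCaP. FBXW9 was the only promoter joined to JUNB in all 3 lists, with 6, 4 and 5 read pairs. In LNCaP 205 of the 387 read pairs joined JUNB to a single anchor in a HOOK2 intron 5.93 kb upstream, its only distal partner there. That anchor lay inside the 15.8 kb Ishikawa anchor of JUNB itself, so the contact could not appear as a loop in Ishikawa.

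JUND was joined to the promoters of 18 genes in LNCaP, of which 6 were also joined in Ishikawa and 12 were not. Of the shared ones, PGPEP1 was joined by 43 read pairs in Ishikawa and 3 in LNCaP, LSM4 by 38 in each, GDF15, which encodes a stress-induced cytokine, by 15 and 51, and IQCN by 11 and 41. None of these 4 promoters was joined to JUND in T-47D, which had 3 JUND loops. The wide Ishikawa anchor over PGPEP1, chr19:18438240-18452699, also overlapped LNCaP distal anchors joined to JUND by 7 and 6 read pairs. The PGPEP1 counts of the lists therefore cover different stretches of DNA. So do the IQCN counts, whose anchors, 18.9 kb downstream in Ishikawa and 6.38 kb downstream in LNCaP, did not overlap. Of the LSM4 read pairs in Ishikawa, 24 went to an anchor outside the LNCaP one. Of the GDF15 read pairs in LNCaP, 22 went to an anchor outside the Ishikawa one. MPV17L2 (3 read pairs in T-47D, 17 in LNCaP) and SSBP4 (5 in each) were joined in those lists and not in Ishikawa. In T-47D the strongest JUND partner was a distal anchor 10.9 kb upstream (14 read pairs) that lay inside the 21.65 kb Ishikawa anchor of JUND. LSM4 shared 5 distal anchors with JUND in LNCaP, a Jaccard index of 0.625.

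ATF3 encodes a stress-induced partner of the JUN proteins that often represses its targets, and lies at chr1:212738676-212794119 (plus strand) with 7 annotated start sites. It had 3, 72 and 120 read pairs in Ishikawa, T-47D and LNCaP, or 2.88, 205 and 66.5 RPM. The T-47D share was 71.1 times that of Ishikawa (23.4 to 352.7) and the LNCaP share 23.0 times (7.70 to 113.3). T-47D and LNCaP differed by 3.08-fold, higher in T-47D (2.27 to 4.16). The anchors lay over different start sites, since the Ishikawa anchor began downstream of the T-47D anchor and LNCaP had an additional anchor over the first start site. Counting only the annotated 5′ end of the gene left ATF3 with no loop in Ishikawa or T-47D and 21 read pairs in LNCaP, and turned the sign of LNCaP over T-47D (log2 from -1.62 to 0.45).

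The only distal region that ATF3 contacted in 2 lists lay 50.0 kb upstream of the main anchor's start site, and 6.70 kb upstream of the gene's first start site. It is shown because it held an AP-1 site and a cAMP response element close together, both in capitals.
ATF3 upstream region, chr1:212732344-212732430, plus strand: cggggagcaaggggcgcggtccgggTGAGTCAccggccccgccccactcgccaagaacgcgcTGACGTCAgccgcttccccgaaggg
This region was joined to ATF3 by 16 read pairs in T-47D and 25 in LNCaP. Each list had a stronger partner of its own, an intergenic anchor 141.5 kb upstream in T-47D (29 read pairs) and one 126.7 kb upstream in LNCaP (27). The single Ishikawa loop reached an intron of PPP2R5A 276.4 kb upstream.

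EGR1 encodes a zinc finger transcription factor of the early growth response and lies at chr5:137801168-137804992 (plus strand). Its promoter held 5 CArG boxes, in capitals below, in the 500 bases before the start site, and no other of the 20163 promoters searched held as many.
EGR1 promoter, distal boxes, chr5:137800738-137800817, plus strand: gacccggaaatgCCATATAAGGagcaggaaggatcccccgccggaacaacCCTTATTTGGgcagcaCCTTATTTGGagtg
EGR1 promoter, proximal boxes, chr5:137801048-137801097, plus strand: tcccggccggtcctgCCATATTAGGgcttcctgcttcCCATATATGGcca
EGR1 had 3 read pairs in Ishikawa (exact 95% Poisson interval 0.619 to 8.77), 121 in T-47D (100 to 145) and 173 in LNCaP (148 to 201), or 2.88, 344.5 and 95.8 RPM. This was the widest range of the 8 genes with a loop in every list. The T-47D share was 119.5 times that of Ishikawa (39.9 to 587.3) and the LNCaP share 33.2 times (11.2 to 162.7). T-47D exceeded LNCaP by 3.595-fold (2.83 to 4.56). The promoter was itself an anchor of similar width in Ishikawa (3.31 kb) and T-47D (3.31 kb), and 4 of the 5 distal anchors linked to EGR1 in T-47D overlapped an Ishikawa anchor that was not linked to EGR1.

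EGR1 was joined mostly to DNA downstream of its start site, and upstream partners had 18.2% of the read pairs in T-47D and 23.1% in LNCaP. In T-47D the intergenic anchors 26.2 kb and 40.0 kb downstream had 25 and 22 read pairs, and neither was linked in LNCaP. In LNCaP the strongest partners were the promoters of ETF1, a translation release factor gene, with 39 read pairs, and of HSPA9, a mitochondrial chaperone gene, with 48, which had 11 and 8 read pairs in T-47D. Distal anchors took 55.4% of the EGR1 read pairs in T-47D and 17.3% in LNCaP. In T-47D EGR1 shared 4 distal anchors with ETF1, a Jaccard index of 0.8. The 1 distal region found in both lists lay in an intron of ETF1 63.8 kb downstream, joined by 10 read pairs (T-47D) and 8 (LNCaP). It held 2 TGANTCA matches, TGAATCA and TGACTCA, shown in capitals.
EGR1 region, first site, chr5:137865150-137865206, plus strand: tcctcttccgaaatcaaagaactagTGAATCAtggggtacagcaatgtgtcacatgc
EGR1 region, second site, chr5:137865866-137865922, plus strand: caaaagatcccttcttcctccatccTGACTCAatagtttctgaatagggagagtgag

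IER2 encodes a small nuclear protein of the immediate-early response and lies at chr19:13261225-13265725 (plus strand). It had 13, 35 and 528 read pairs in Ishikawa, T-47D and LNCaP, or 12.5, 99.6 and 292.5 RPM, and the LNCaP value was the highest of the 10 genes in that list. The Ishikawa share was 0.0427 times that of LNCaP (0.0226 to 0.0737) and 0.125 times that of T-47D (0.0609 to 0.243). The anchor also lay over STX10 in Ishikawa and LNCaP. In T-47D it covered only downstream start sites, so with 1 start site per gene IER2 had no T-47D loop and the sign of that comparison turned. An intergenic anchor 12.8 kb downstream was joined by 10 read pairs in Ishikawa and 112 in LNCaP. The promoters of NACC1 and TRMT1, which share an anchor, were joined in all 3 lists, by 3, 14 and 78 read pairs. NFIX, a nuclear factor I gene, was the strongest partner in LNCaP, with 188 read pairs to the wide anchor at chr19:13100824-13149036. In T-47D an anchor in an NFIX intron, inside that stretch and counted as distal, was joined to IER2 by 4 read pairs. JUNB and IER2 were the only pair of the 10 genes joined to each other, across about 360 kb, by 3 read pairs in T-47D and 3 in LNCaP.

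**Figure D3:**
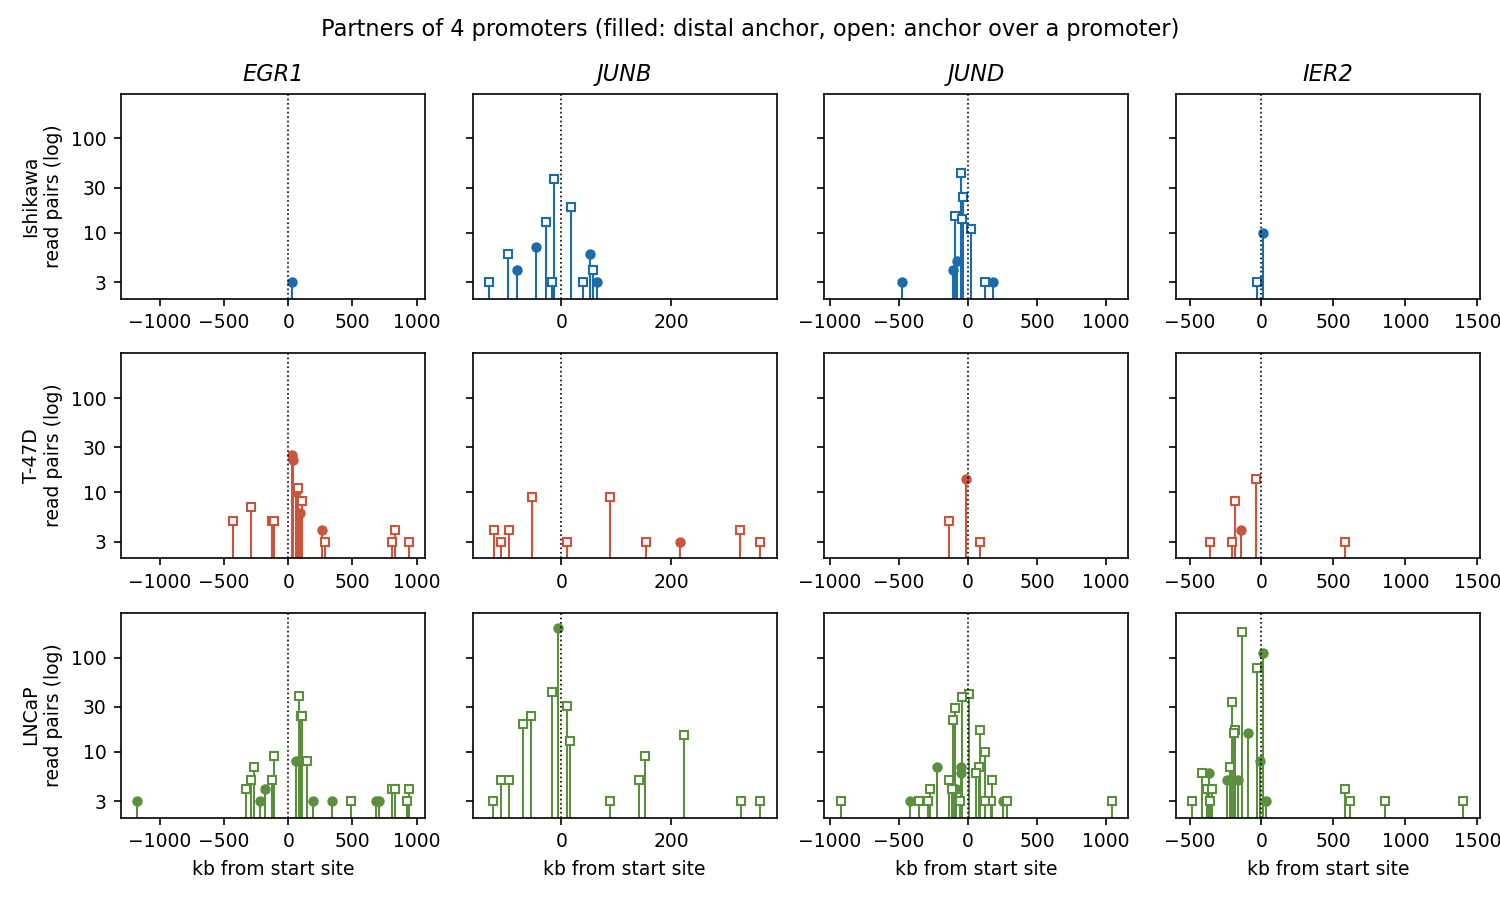
Partners of the EGR1, JUNB, JUND and IER2 promoters by distance from the start site (kb, negative upstream) and read pairs (log scale), with a row of panels per cell line, filled points for distal anchors and open squares for anchors over promoters. EGR1 has 1 Ishikawa loop of 3 read pairs against 15 loops in T-47D, and the tallest points in LNCaP are JUNB to HOOK2 DNA (205) and IER2 to NFIX (188).

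Set side by side, no gene passed a 4-fold difference in share between LNCaP and T-47D in either direction among the 9 with 10 or more read pairs in at least 1 list, beside 13.5% of all genes higher and 19.1% lower in LNCaP. Against T-47D, Ishikawa was 4-fold or more lower for 4 of 9 genes (FOSB, ATF3, EGR1 and IER2) and higher for none, beside 42.2% and 15.0% of all genes. Against LNCaP it was lower for 5 of 9, with JUN added, and higher for none, beside 40.6% and 25.2%. The first of these counts lower in Ishikawa was near the share of all genes. The second was not far above it and became smaller after thinning. With so few genes, none of the counts past 4-fold is read as a trait of the 10 genes. The median log2 ratio of Ishikawa to T-47D was -1.91 over the members and -1.07 over all genes, that of Ishikawa to LNCaP was -2.75 against -1.29, and that of LNCaP to T-47D was 0.74 against -0.29. FOS, FOSL2, JUNB and JUND stayed within 4-fold in every pair of lists, whereas EGR1 and ATF3 spanned more than any other gene with a loop in every list.

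Partners were both distal anchors and other promoters. Distal loops were 28 of 48, 22 of 56 and 104 of 185 in Ishikawa, T-47D and LNCaP, or 58.3%, 39.3% and 56.2%, and over all promoter loops 79.6%, 52.0% and 66.4%. FOS and JUN sent most of their read pairs to distal anchors in Ishikawa and LNCaP, and JUND most of its read pairs to promoters in those lists. The loops of the 10 genes spanned a median of 63.7, 115.5 and 197.1 kb in Ishikawa, T-47D and LNCaP, and all promoter loops 43.6, 90.9 and 122.3 kb.

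**Figure D4:**
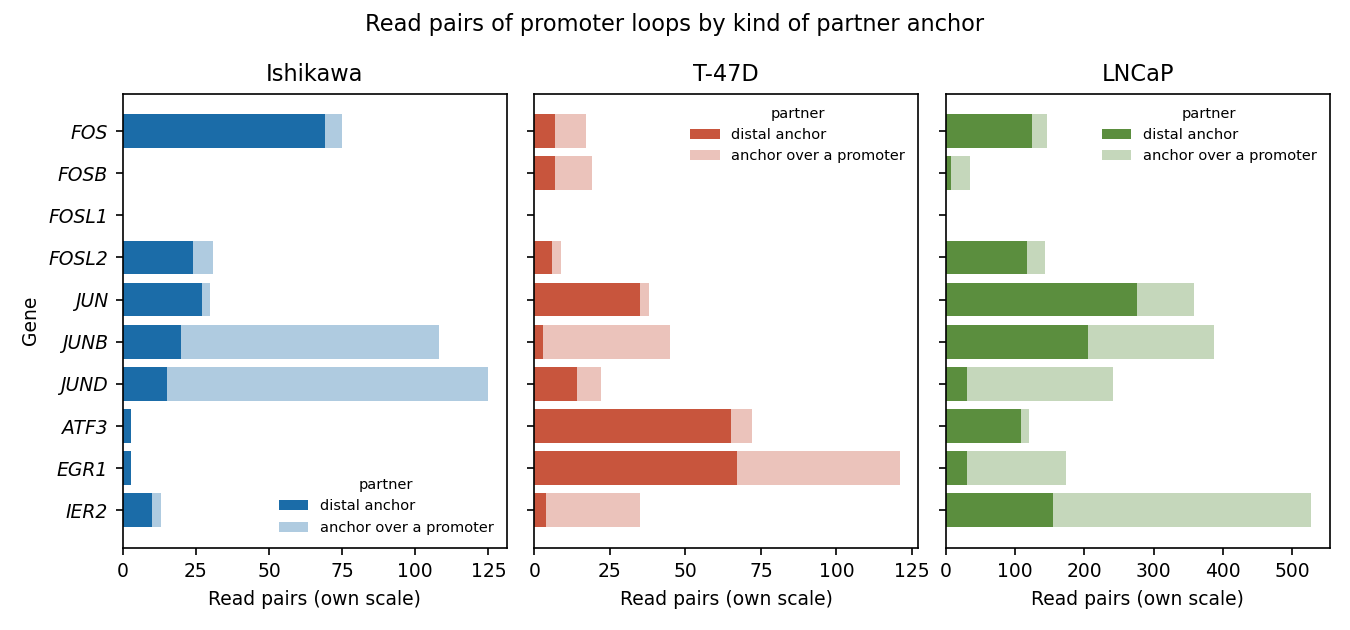
Read pairs of each gene's promoter loops split by partner (dark, distal anchor; light, anchor over a promoter), with a panel per cell line and a separate horizontal scale in each. JUNB and JUND are mainly light in Ishikawa, whereas FOS and JUN are mainly dark in Ishikawa and LNCaP.

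Distal regions linked to the same gene were matched by position between the cell lines. Of 139 distal regions linked to the 10 genes, 127 were linked in 1 list, 11 in 2 and 1 in all 3. Of 102 pairs of a member with another promoter's gene, 48 were joined in 2 lists and 5 in 3, though promoters that share an anchor count more than once. The same counts over all genes were not made, so neither is read as a trait of the 10 genes. Linked distal anchors, counted per gene, numbered 28, 22 and 102 in Ishikawa, T-47D and LNCaP. Width differed between lists, the member anchors having medians of 7.72, 4.03 and 5.57 kb in Ishikawa, T-47D and LNCaP, and depth differed as given above, and their part in the sharing was not tested.

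Sequence features were counted in the 500 bases before each gene start and in the linked distal anchors. Only the first start site of a gene was searched. The ATF3 anchors of Ishikawa and T-47D and the FOSB and IER2 anchors of T-47D did not cover that site. The motifs were TGANTCA, TGACGTCA, the CArG box and the palindromic estrogen response element, each of which reads the same on both strands. CArG boxes were in 3 of the 10 promoters (FOS, FOSB and EGR1), against 2.48% of all 20163, and TGACGTCA in 2 (FOSB and JUND), against 2.22%. TGANTCA was in none of the 10 and in 10.8% of all, and the estrogen response element in none and in 0.0546%. Linked distal anchors held TGANTCA at 0.321, 0.262 and 0.370 matches per kb in Ishikawa, T-47D and LNCaP, where all distal anchors held 0.345, 0.343 and 0.357.

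Of 21 other AP-1 and ATF family genes, 13, 13 and 16 were linked in Ishikawa, T-47D and LNCaP, or 61.9%, 61.9% and 76.2%, where 52.5%, 34.7% and 52.4% of all genes were linked. The leading members by RPM were ATF7 (304) and BACH1 (121) in Ishikawa, MAFK (814) and MAFG (481) in T-47D, and ATF7 (390.0) and MAFK (171) in LNCaP. Of 38 other immediate-early genes, 24, 25 and 29 were linked (63.2%, 65.8% and 76.3%), led by the Notch target HES1 (297) and the nuclear receptor gene NR4A1 (250) in Ishikawa, HES1 (954) and ZFP36L1 (797) in T-47D, and the feedback inhibitor ERRFI1 (549) and the clock gene PER1 (366) in LNCaP. Of 16 upstream regulators, 11, 10 and 13 were linked (68.8%, 62.5% and 81.2%), and the serum response factor gene SRF had 131 RPM in T-47D, where MAPK9 led with 222. CREBBP (125) and MAP2K2 (114) led in Ishikawa, and ELK4 (856) and MRTFB (301) in LNCaP.

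Rows of the Ishikawa list came in 4 blocks, called parts here, which nothing assigns to samples. Of the 48 Ishikawa loops, 19 (39.6%) occurred in 2 or more parts, and so did 33.8% of all Ishikawa loops. FOS had 16, 12, 17 and 30 read pairs in the parts, JUNB 17, 6, 46 and 39, JUND 20, 9, 58 and 38, and FOSL2 3, 4, 13 and 11. JUN had 11, 0, 11 and 8. The low genes rested on few parts, EGR1 on part 4 with 3 read pairs, ATF3 on part 2 with 3, and IER2 on parts 3 and 4 with 6 and 7.

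**Figure D5:**
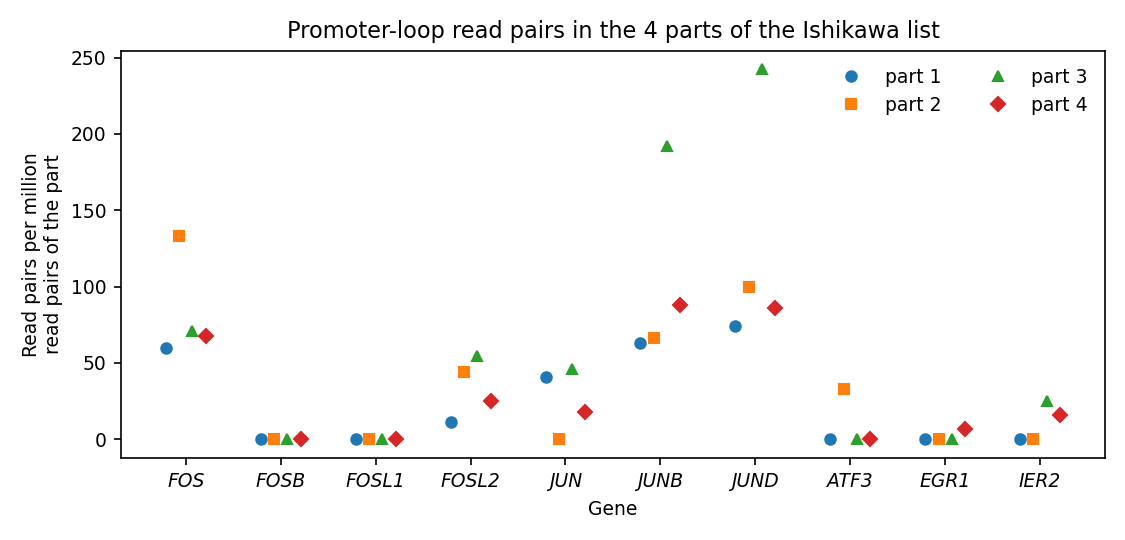
Read pairs in promoter loops, per 1000000 read pairs of the part, for each gene in the 4 parts of the Ishikawa list. JUND and JUNB are highest in part 3, and EGR1, ATF3 and IER2 are above 0 in 1 or 2 parts.

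Genes typical of each line were checked against the labels. KLK3, which encodes prostate-specific antigen, had 2936 read pairs in LNCaP, 6 in Ishikawa and 0 in T-47D. GATA3, a luminal breast factor, had 1063 in T-47D, against 7 in Ishikawa and 0 in LNCaP, though TFF1, another breast marker, had 0 in T-47D and 58 in LNCaP. PAX8, a factor of the female reproductive tract, had 162 in Ishikawa and 0 in the other lists. TMPRSS2, a marker chosen for LNCaP (1056 read pairs), had 231 in Ishikawa, more than PAX8 there, and 18 in T-47D.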

How the data were processed

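Per the study's methods, the authors aligned reads to hg19 with HiC-Pro, called loops with hichipper, removed loops with fewer than 3 reads or a high false discovery rate, and combined samples. Tool versions are not given in the sources used here. The deposited values used are counts of read pairs per pair of anchors, not scaled for depth. The lists were filtered unequally, since self-paired anchors were listed for Ishikawa and T-47D and not for LNCaP. Ishikawa rows of the same anchor pair were summed over 4 parts. Anchor edges fell within 5 bases of GATC in GRCh37 for 100% of edges in Ishikawa and LNCaP and 99.995% in T-47D.

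Promoters were windows of 500 bp on start sites of 20163 protein-coding genes (GENCODE release 44 lifted to GRCh37), and anchors overlapped by 1 bp or more. A share is a gene's read pairs over its list's total. Fold comparisons took genes with 10 or more read pairs in 1 of the 2 lists, a list under 3 counting as 3. Ratio intervals are exact conditional binomial, at 95%. Distances run from the first start site in the anchor to the partner's center. Distal regions of a gene that overlapped were merged. No test was made, since samples were pooled. Members and gene lists were chosen with earlier results of these data known. All 10 genes are named, with their strongest partners per list, regions in all 3 lists and the gene most alike by Jaccard index, and the 2 leading genes of each pathway list. Other shared regions, KLK3, GATA3, TFF1, PAX8 and TMPRSS2 were picked to be given after their values were seen. Calculations used Python 3.11.15, numpy 2.4.6 and pandas 2.3.3 and were tested on simulated data. Alternatives covered 5 or 10 read pairs, thinning, spans, a window of 2 kb, 1 start site per gene and the Ishikawa parts.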

Additional observations from a re-analysis of the deposited data

Results flagged for a closer look

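Read pairs that joined an anchor to itself lay outside the loops described above. In Ishikawa the anchor over JUND had 63 such read pairs, the most of the 10 genes there, and in T-47D the anchor over EGR1 had 72, again the most. The LNCaP list held none for any gene. These results are given because they are signals in rows that the comparisons left out. T-47D also held 70 rows between chromosomes, none with a member's promoter.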

How the results depend on the processing

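With 1 pooled list per cell line, leaving out a replicate was not possible, and leaving out each Ishikawa part took its place. No paired analysis was possible because the lists pool the samples and carry no replicate numbers. Requiring 5 read pairs left 21, 25 and 106 loops in Ishikawa, T-47D and LNCaP, and requiring 10 left 14, 10 and 46. Thinning to the shallowest list left 17 in Ishikawa and 45 in LNCaP, and 2 or more Ishikawa parts left 19. Linked genes fell to 4 in Ishikawa and 4 in T-47D at 10 read pairs, and in Ishikawa to 4 after thinning and 5 with 2 or more parts. The Ishikawa share became 0.0543% at 10 read pairs, 0.0468% after thinning, 0.0456% for spans of 20 kb to 1 Mb, 0.0433% with 2 or more parts, and 0.0296% to 0.0421% without 1 part, staying below the other lists. The T-47D share became 0.0946% (5 read pairs), 0.0846% (10), 0.144% (spans) and 0.0717% (1 start site per gene), and the LNCaP share 0.112% (spans) and 0.113% (1 start site). Genes 4-fold higher in LNCaP than in T-47D, 0 as reported, became 2 at 5 read pairs, 3 at 10, and 1 each after thinning, for spans and with 1 start site. Genes 4-fold lower there became 1, 2, 1 and 2 at 5 read pairs, 10 read pairs, thinning and spans. For Ishikawa against T-47D, genes higher became 2 (10 read pairs) and 1 (spans), and genes lower 2 (10 read pairs) and 1 (1 start site). Against LNCaP, genes lower became 3 after thinning. The shares of all genes linked or past 4-fold were not counted under these alternatives. Of the differences past 4-fold, the sign turned for IER2, Ishikawa over T-47D, at log2 0.549 with 1 start site per gene, where T-47D lost its anchor, and for FOSB, Ishikawa over LNCaP, at log2 0.058 with a window of 2 kb, which took in an Ishikawa anchor. The other causes were not tested. Over all alternatives, 287 of 318 log2 ratios of single genes stayed on their side of the 4-fold line and 29 crossed it, besides these 2. Another 18 that were within 4-fold also changed sign, among them FOSB (1.183) and ATF3 (0.446), LNCaP over T-47D, with 1 start site per gene. Depth limits loops near 3 read pairs.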
